A study of Mus musculus with 6 samples.

Results

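miR-124 and its star arm miR-124* were followed through small RNA libraries of mouse whole brain. They were taken by name from the 3 deposited tables of raw reads, each of which holds 1 wild-type and 1 Adar2-/- library, and are 2 of the 1055 mature miRNAs listed there. Small RNAs of the length of mature miRNAs were sequenced from the brains of 3 wild-type and 3 Adar2-/- mice, with 1 library for each brain. All 6 animals were adult female siblings of strain 129SV aged 5.5 months, and both genotypes carried the pre-edited Gria2 allele in homozygous form (Gria2 R/R), which rescues the early death of mice without ADAR2. Adar2-/- mice lack the deaminase in every cell type from conception, so direct and long-term consequences of its absence could not be told apart in these libraries. ADAR2 converts adenosine to inosine in double-stranded RNA, miRNA hairpins included, and the study asked how it affects the abundance and sequence of mature miRNAs.

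miR-124 is the classic neuronal miRNA. It is switched on when progenitors become neurons, stays high in the mature brain and represses transcripts of non-neuronal cells, among them the splicing regulator Ptbp1. As with other miRNAs, Drosha cuts its hairpin out of a primary transcript, Dicer removes the loop and an Argonaute protein keeps mainly the guide strand, while the opposite strand, here miR-124*, is mostly discarded. RefSeq lists 3 mouse genes for it, Mir124a-1, Mir124a-2 and Mir124a-3, and 2 of them lie within genes for long noncoding RNAs, Mir124a-1hg and Mir124-2hg. In the NCBIM37 annotation Mir124a-1 is on chromosome 14 and Mir124a-3 on chromosome 2, both on the plus strand. The tables give a single row to each arm, so reads cannot be assigned to a gene.

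Wild-type libraries held 12449633 to 23471819 mapped miRNA reads, and Adar2-/- libraries held 18645810 to 23935544. Abundance is given as RPM, the reads of a miRNA per 1000000 miRNA reads mapped in its library. Of the miRNAs listed, 399 reached 100 reads in each of the libraries and were tested, both arms of miR-124 among them. Of the 9 neuron-enriched miRNAs found, miR-9, miR-132 and miR-138 were each at 6872 RPM or more in every library. Others of the 9 were lower, down to 377 RPM for miR-137, 386 RPM for miR-128 and 855 RPM for miR-129-5p. The sum of the 9 did not overlap between genotypes (170495 to 207916 RPM in wild type, 154417 to 165007 RPM in Adar2-/-). Taken singly, only miR-129-5p of the 9 showed no overlap, as did 23 of the 399 miRNAs tested (5.76%). miR-9, which supplied most of the sum, overlapped (105455 to 151020 RPM in wild type, 99104 to 110323 RPM in Adar2-/-). How often sums of 9 miRNAs show no overlap was not worked out. The liver miRNA miR-122 stayed between 3.95 and 7.23 RPM. Adar2-/- replicate 3 stood apart in miRNAs of sensory and epithelial cells. Its summed level of miR-182, miR-183 and miR-96 (3 of 3 names found) was 19159 RPM, against 89664 to 186903 RPM in the other 5 libraries, and that of 5 epithelial miRNAs (5 of 5 found) was 738 RPM, against 4783 to 9210 RPM. Summed levels of the oligodendrocyte, vessel wall, blood, choroid plexus, pituitary, muscle and liver lists overlapped between genotypes. The pituitary list nevertheless had its highest sum in wild-type replicate 1, at 7459 RPM against 1289 to 4714 RPM elsewhere. Of its members only miR-375 set this library apart, with 3294 RPM there and no more than 113 RPM in any other. Another member, miR-7a, was higher in Adar2-/- replicate 3 (3585 RPM) than in wild-type replicate 1 (2976 RPM). miR-7b was at 1074 and 1189 RPM in these libraries. Wild-type replicate 1 also gave the fewest mapped reads (12449633) and the most miR-124*. Whether these features are linked was not tested. Adar2 mRNA was not analysed here, so the genotype labels were not checked.

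miR-124 was among the 25 most abundant miRNAs in each brain and did not differ between genotypes beyond the spread between replicates. In wild type it stood at 14405, 13519 and 7203 RPM in replicates 1 to 3, from 179339, 307964 and 169068 reads. In Adar2-/- it stood at 11198, 14998 and 25453 RPM, from 208804, 353727 and 609233 reads. The highest value belonged to Adar2-/- replicate 3 and the lowest to wild-type replicate 3, and the genotypes overlapped because Adar2-/- replicate 1 lay below 2 of the wild-type libraries. In a whole brain, fewer cells that express a miRNA and less of it in each cell cannot be told apart.

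**Figure D1:**
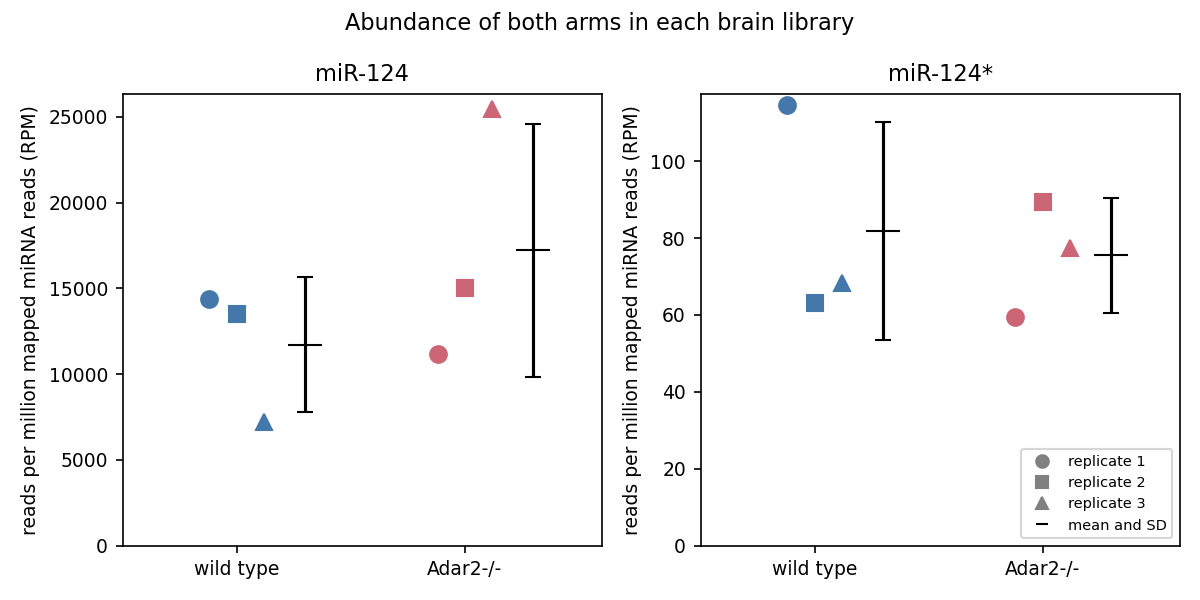
Abundance of miR-124 (left) and miR-124* (right) in each library, in RPM on axes that start at 0. Each symbol is 1 brain, its shape gives the replicate number, and the black bars give the mean and SD of 3 libraries; miR-124 reached 25453 RPM in Adar2-/- replicate 3, and the genotypes overlap for both arms.

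The wild-type libraries averaged 11709 ± 3928 RPM of miR-124 (SD, n = 3) and the Adar2-/- libraries 17216 ± 7382 RPM (SD, n = 3). Their ratio of 1.47 gave p = 0.4 in a two-sided exact permutation test, which cannot go below 0.1 with groups of 3. In edgeR's quasi-likelihood test the log2 fold change of Adar2-/- against wild type was 0.56 (standard error 0.409, Benjamini-Hochberg adjusted p = 0.988), with a 95% interval from -0.35 to 1.47. The interval runs from a level 0.783 times that of wild type to one 2.76 times as high. edgeR called 0 of the 399 miRNAs (0%) at an adjusted p of 0.05, 13 (3.26%) had an unadjusted p under 0.05, and DESeq2 called 1, which was neither arm of miR-124. A log2 fold change above 0 was found for 201 of the 399 miRNAs (50.4%), and 43 miRNAs had a larger one than miR-124. The value depended on which libraries entered. Without Adar2-/- replicate 3 it was 0.16, without wild-type replicate 3 it was 0.30, and without both it was -0.092, with adjusted p-values from 0.995 to 0.998 in edgeR. Without replicate 1 of both genotypes it was 0.96 (unadjusted p = 0.0343, adjusted p = 0.187 in edgeR), and 18 miRNAs were then called, all 18 higher in Adar2-/-, miR-124 not among them.

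Within replicate numbers, Adar2-/- divided by wild type was 0.777, 1.11 and 3.53 for miR-124 in replicates 1 to 3. The same pattern, lower in Adar2-/- in replicate 1 and higher in replicates 2 and 3, was shown by 141 of the 399 miRNAs (35.3%). The level of miR-124 ranked 15, 16 and 25 among all miRNAs in the wild-type libraries and 15, 18 and 8 in the Adar2-/- libraries. Its spread within genotypes, a pooled SD of 0.58 on the log2 RPM scale, was wider than that of 70.7% of the miRNAs tested, whose median was 0.45.

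In Adar2-/- replicate 3, the library with the most miR-124, the 8 miRNAs of the sensory and epithelial lists (miR-182, miR-183, miR-96, miR-200a, miR-200b, miR-200c, miR-141 and miR-429) took 1.99% of the reads, against 9.48% to 19.6% in the other libraries. None of the 8 was at 0 in any library, and their part in the level of miR-124 was not tested beyond the following setting. With these miRNAs left out of the totals, miR-124 stood at 16367, 16104 and 8120 RPM of the remaining reads in wild type and at 13930, 16569 and 25970 RPM in Adar2-/-. The highest and the lowest library were the same as before, and the log2 fold change was 0.48 (adjusted p = 0.952 in edgeR). This setting was chosen after the data were seen.

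miR-124* was present at a low level in every brain. It stood at 115, 63.0 and 68.2 RPM in wild-type replicates 1 to 3, from 1426, 1436 and 1601 reads. In Adar2-/- it stood at 59.5, 89.4 and 77.5 RPM, from 1110, 2109 and 1854 reads. Wild-type replicate 1 was the highest and Adar2-/- replicate 1 the lowest, so that the extremes of the star arm and of the guide fell in different libraries.

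For miR-124* the wild-type libraries averaged 81.9 ± 28.4 RPM (SD, n = 3) and the Adar2-/- libraries 75.5 ± 15.0 RPM (SD, n = 3). The ratio of the means was 0.921 (p = 0.8 by exact permutation). edgeR gave a log2 fold change of -0.12 with a standard error of 0.352 and a 95% interval from -0.90 to 0.67 (adjusted p = 0.989). It turned to 0.20 without wild-type replicate 1, to 0.03 without Adar2-/- replicate 1 and to 0.35 without both. Within replicate numbers the ratios were 0.520, 1.42 and 1.14. The genotypes overlapped in RPM for miR-124* as for miR-124, whereas 23 of the 399 miRNAs (5.76%) showed no overlap. The pooled SD within genotypes was 0.39 on the log2 RPM scale, below the median of all miRNAs tested.

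The arms come from the same hairpins, and their ratio within a library does not depend on the total number of reads. The guide was 105.6 to 328.6 times as abundant as the star arm. In wild-type replicates 1 to 3 there were 125.8, 214.5 and 105.6 reads of miR-124 for each read of miR-124*, and in Adar2-/- replicates 1 to 3 there were 188.1, 167.7 and 328.6. The lowest value belonged to wild-type replicate 3 and the highest to Adar2-/- replicate 3, and wild-type replicate 2 lay within the range of Adar2-/-.

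As a share of the reads on both arms, miR-124* made up 0.789%, 0.464% and 0.938% in wild type. In Adar2-/- the shares were 0.529%, 0.593% and 0.303%. The 95% Wilson intervals reached from 0.893% to 0.985% in wild-type replicate 3 and from 0.290% to 0.317% in Adar2-/- replicate 3, so these libraries differed by more than counting error, which is all that the intervals cover.

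On the log2 scale miR-124* over miR-124 averaged -7.15 ± 0.53 for wild type (SD, n = 3) and -7.77 ± 0.52 for Adar2-/- (SD, n = 3). The difference was -0.62 (p = 0.3, exact permutation test, two-sided). It was -0.58, 0.35 and -1.64 in replicates 1 to 3, so the star share was lower in Adar2-/- in 2 of 3 replicate numbers. Of 120 arm pairs in which both arms reached 100 reads in every library, 84 had a lower mean ratio in Adar2-/-, with a median difference of -0.27. The genotypes of the miR-124 pair overlapped, and 12 of the 120 pairs (10%) showed no overlap. Without replicate 3 of both genotypes the difference was -0.11, and without replicate 2 it was -1.11.

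**Figure D2:**
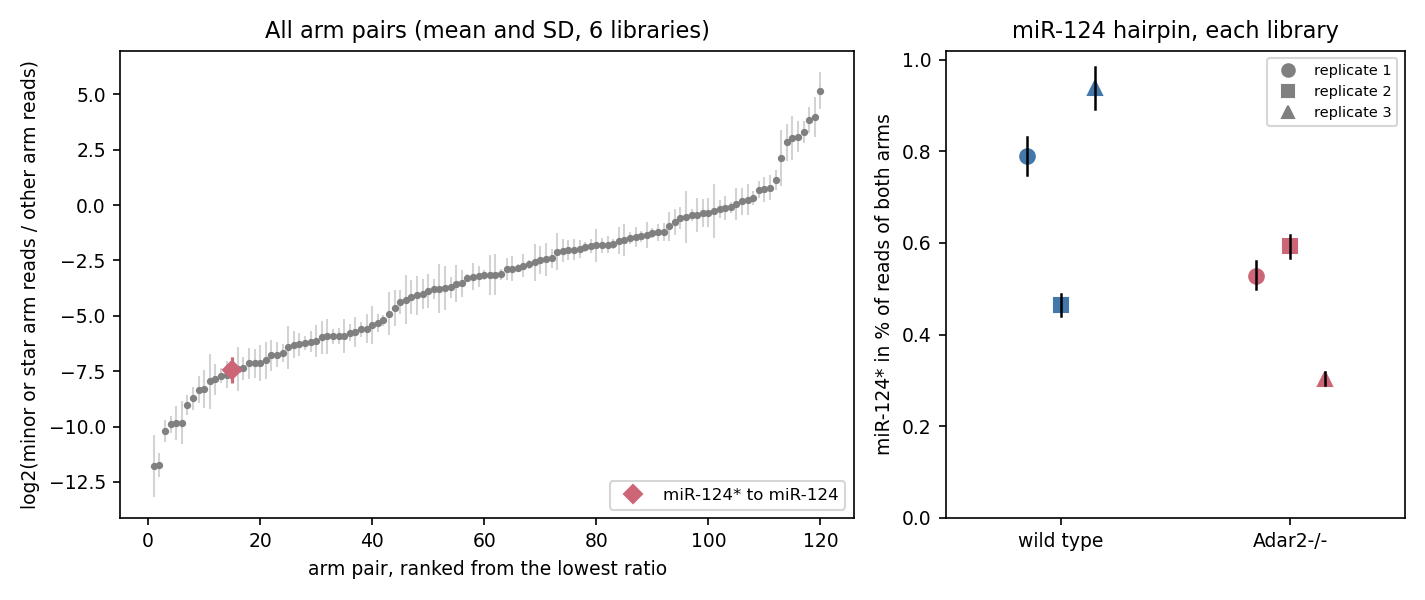
Left, log2 ratio of the star or less read arm to the other arm for 120 arm pairs, as mean and SD over 6 libraries, ranked from the lowest; the pair of miR-124 (diamond) holds rank 15. Right, miR-124* as a percentage of the reads on both arms in each library, with 95% Wilson intervals as black lines; it ran from 0.303% to 0.938%, and the genotypes overlap.

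Among the 120 pairs, which share 115 guide strands, 14 had a lower mean ratio than miR-124. Over all 6 libraries its mean log2 ratio was -7.46, against a median of -3.16 for all pairs. The nearest pairs were miR-134* to miR-134 (-7.65) and miR-7a-1* to miR-7a (-7.70) below it and miR-30c-1* to miR-30c (-7.41) and miR-218-2* to miR-218 (-7.38) above it. miR-134, miR-7a and miR-218 are themselves miRNAs of neurons, although miR-7a is also in the pituitary list. All 4 differed from the pair of miR-124 by less than its SD of 0.58 over the 6 libraries. Within single libraries the pair ranked between 11 and 25 from the lowest. Its pooled SD of 0.53 within genotypes was close to the median of 0.55 for all pairs. The names of miR-7a-1*, miR-30c-1* and miR-218-2* carry a hairpin number, whereas their guides and both arms of miR-124 do not. Their ratios may thus set the star of a single hairpin against the guide of several, and the ranks compare unlike ratios.

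Set against other neuron-enriched miRNAs, the level of miR-124 lay in the upper part. Of the 11 names in the list, 9 matched a row, and all 9 were tested. The names miR-212 and miR-129-3p did not match, since these miRNAs are listed as miR-212-3p, miR-129-1-3p and miR-129-2-3p. By mean RPM over the 6 libraries, the order was miR-9 at 116040 ± 18606, miR-132 at 19856 ± 6138, miR-138 at 15154 ± 6185, miR-124 itself at 14463, miR-9* at 11485 ± 8385 and miR-153 at 6837 ± 1134 (SD, n = 6). miR-9 controls the growth and differentiation of neural progenitors, miR-132 is induced by neuronal activity, miR-138 acts on dendritic spines and miR-153 acts on the release of transmitter. miR-124 was above miR-132 in 2 of 6 libraries, above miR-138 in 3, above miR-9* in 4 and above miR-153 in 5, so its place relative to these neighbours changed between brains. It was below miR-9 and above miR-218, miR-129-5p, miR-137 and miR-128 in all 6. How strongly each sequence is favoured in adaptor ligation was not measured, and it enters every comparison between different miRNAs.

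None of these 9 miRNAs passed the edgeR threshold. Their log2 fold changes were above 0 for 4 and below 0 for 5, with a median of -0.05, against 0.0023 for all 399 miRNAs tested. They ran from -1.10 for miR-9* (standard error 0.469, adjusted p = 0.988 in edgeR) to 0.98 for miR-137 (standard error 0.446, adjusted p = 0.988). Left out of the 9 by their names alone, miR-212-3p, miR-129-2-3p and miR-129-1-3p were all above 0 (0.57, 0.49 and 0.21). None of them passed the threshold either, and the balance of signs depends on how names were matched. miR-9*, the only one of the 9 with an unadjusted p under 0.05, stood at 28362, 8512 and 10067 RPM in wild type and at 6692, 6359 and 8916 in Adar2-/-, with wild-type replicate 1 far above the rest.

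miR-124 was also expressed as a fraction of the reads on these 9 miRNAs. It equalled 6.93%, 7.01% and 4.22% of their sum in wild type. In Adar2-/- it equalled 7.25%, 9.09% and 15.8%. Each Adar2-/- library lay above each wild-type library, which was true of 10.3% of the 390 miRNAs outside the list, miR-124 included, when each was set against the same sum. The mean log2 ratios differed by 0.78 (p = 0.1 by exact permutation, the smallest that groups of 3 allow). The sum itself did not overlap either, at 154417 to 165007 RPM in Adar2-/- and 170495 to 207916 RPM in wild type. Most of it came from miR-9, which overlapped when taken singly. With miR-9 and miR-9* left out of the sum, miR-124 equalled 50.5%, 21.4% and 13.1% in wild type and 29.9%, 30.3% and 48.1% in Adar2-/-. The genotypes then overlapped, and the difference was 0.54 (p = 0.5 in the same exact permutation test).

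The miRNAs whose log2 RPM followed miR-124 most closely over the 6 libraries, out of 398 compared, were miR-411*, miR-380-3p, miR-137, miR-335-3p and miR-34a. Their Pearson r with miR-124 was 0.96, 0.94, 0.94, 0.91 and 0.91, and Spearman's rho was 0.83, 0.77, 1, 0.66 and 1. These values describe 6 libraries that share their depth and composition, and miRNAs were ranked by them. miR-137, which acts in the maturation of neurons and their synapses, is also in the neuron-enriched list. It stood at 612, 511 and 377 RPM in wild type and at 500, 836 and 1621 RPM in Adar2-/-, so that the 6 libraries fell in the same order as for miR-124. miR-34a, a target of p53 that also acts in neurons, showed the same order, from 67.0 RPM in wild-type replicate 3 to 213 RPM in Adar2-/- replicate 3. So did miR-106b, which is not in the neuron-enriched list (rho of 1). Most other members of that list followed miR-124 less closely. Their r was 0.82 for miR-128, 0.35 for miR-218, 0.26 for miR-138 and 0.02 for miR-9*. It was -0.0039 for miR-129-5p, -0.07 for miR-9, -0.29 for miR-153 and -0.37 for miR-132.

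The mature sequences of these 5 miRNAs from RefSeq (GRCm38.p6) are given 5′ to 3′, with the seed (bases 2 to 8), the part that pairs with targets, in capitals, to show whether the miRNAs that follow miR-124 form a seed family.
miR-411*: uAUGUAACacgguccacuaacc
miR-380-3p: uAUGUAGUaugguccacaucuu
miR-137: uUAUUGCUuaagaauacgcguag
miR-335-3p: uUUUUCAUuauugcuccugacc
miR-34a: uGGCAGUGucuuagcugguugu

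The 5 sequences have 5 distinct seeds, although those of miR-411* and miR-380-3p both begin with AUGUA. Apart from this pair, they come from different parts of the genome. miR-411* (chr12:109710225-109710246) and miR-380-3p (chr12:109711842-109711863) lie near each other in the imprinted miRNA cluster on chromosome 12, miR-137 lies at chr3:118433901-118433923, miR-335-3p, from an intron of Mest, at chr6:30741354-30741375, and miR-34a at chr4:150068473-150068494, all on the plus strand. Their log2 fold changes in edgeR ran from 0.14 for miR-335-3p to 0.98 for miR-137, and none passed the threshold. Since they were chosen for following miR-124 in these libraries, their sign is no separate result.

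**Figure D3:**
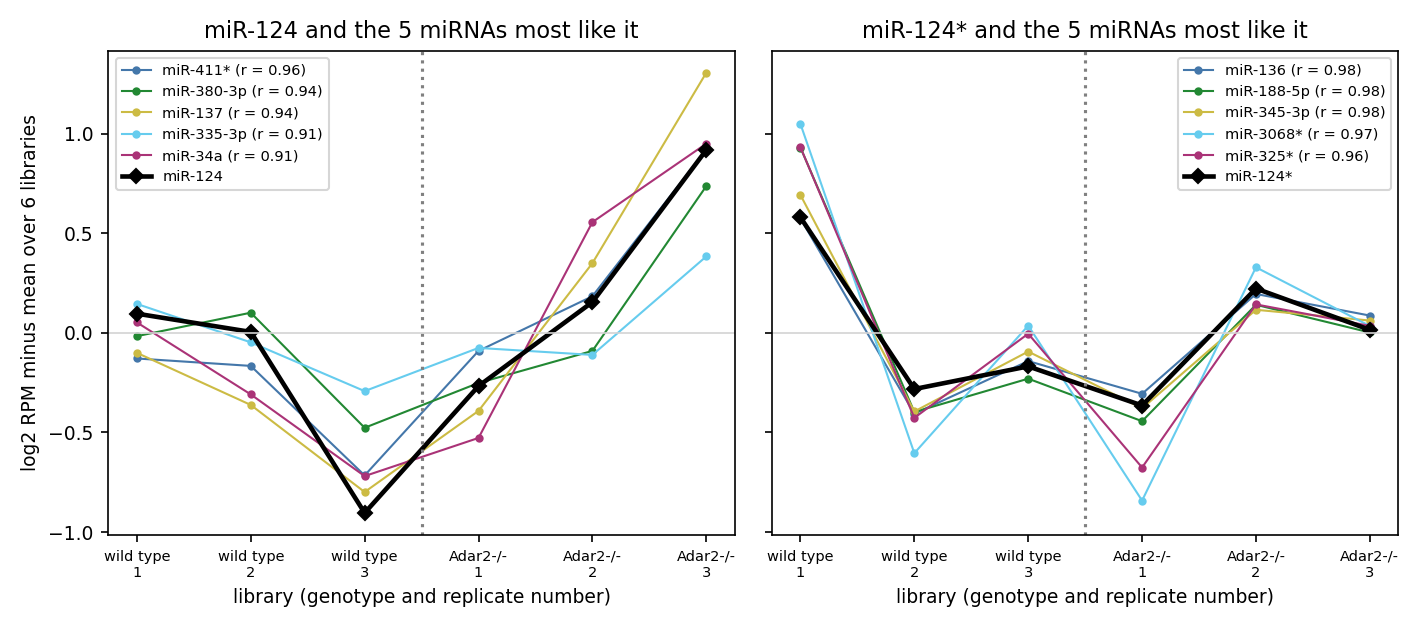
Log2 RPM of miR-124 (left) and miR-124* (right), black, with the 5 miRNAs most like each in colour, each minus its own mean over the 6 libraries; the dotted line parts wild type from Adar2-/-. miR-124 and its followers are lowest in wild-type replicate 3 and highest in Adar2-/- replicate 3, whereas miR-124* and its followers are highest in wild-type replicate 1.

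The star arm had other neighbours. miR-136, miR-188-5p, miR-345-3p, miR-3068* and miR-325* followed miR-124* most closely, with Pearson r of 0.98, 0.98, 0.98, 0.97 and 0.96 and Spearman's rho of 0.94, 1, 0.94, 0.94 and 1. miR-136, an imprinted miRNA encoded opposite Rtl1, stood at 4401, 2232 and 2680 RPM in wild type and at 2392, 3385 and 3140 RPM in Adar2-/-. None of the 5 was among the 5 most like miR-124. By root mean square difference, 2 of the 5, miR-136 and miR-345-3p, remained among the 5 most like miR-124*. Between miR-124 and miR-124* themselves r was 0.335, against a median of 0.11 between the arms of all 120 pairs, and 75 pairs had a lower value.

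**Figure D4:**
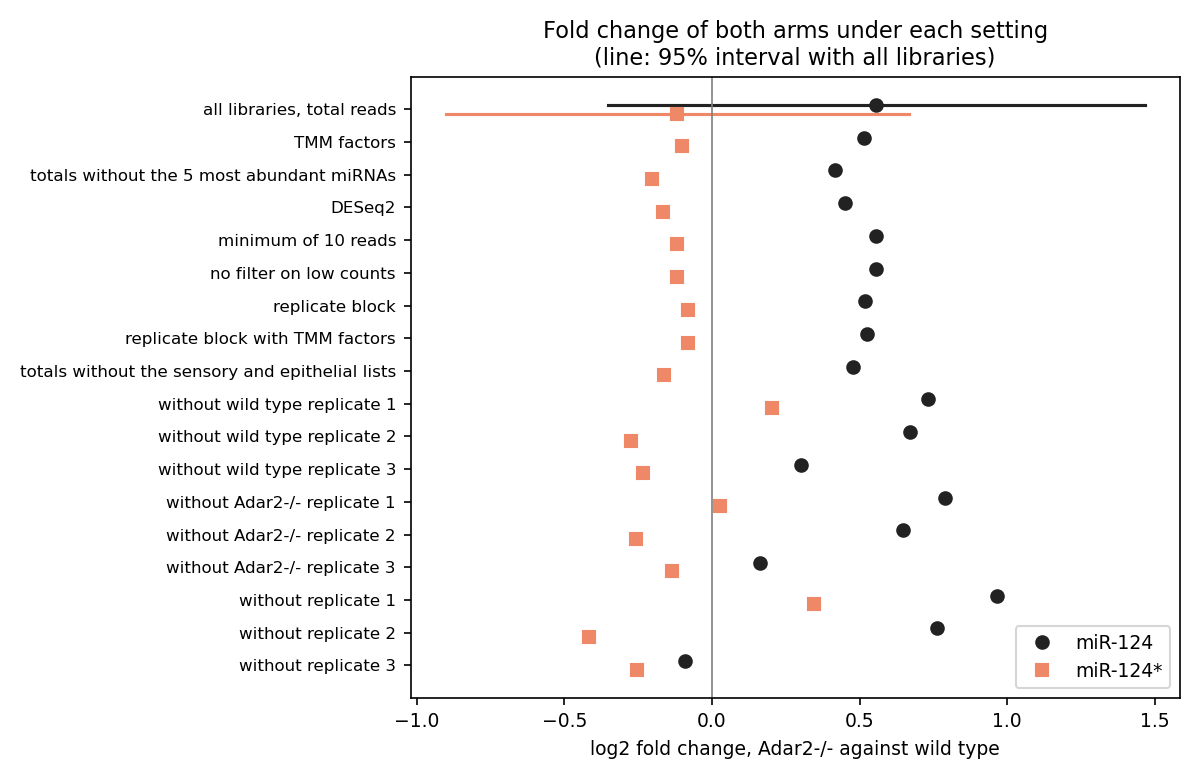
Log2 fold change of Adar2-/- against wild type for miR-124 (circles) and miR-124* (squares) under each setting of the test; lines give the 95% interval with all libraries and total reads. Changes of scaling, filter and test kept miR-124 between 0.42 and 0.56, and leaving out libraries moved it from -0.092 to 0.96.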

How the data were processed

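Whole brains of 3 wild-type and 3 Adar2-/- mice were profiled. The authors clipped adaptors with Cutadapt and mapped reads with NextGenMap at 90% identity or more to the mature miRNAs of miRBase release 16. Hits to the reverse strand were discarded, and reads with several equally good hits were weighted. How weights became whole numbers is not given in the sources used here. The submitters' processing notes name the build mm9. The deposited values are raw counts of reads without normalization, with 1 library per column, and each column was matched to its sample by genotype and replicate number. Lines without a miRNA (12) were dropped. Reads are not independent molecules, and PCR copies were not removed, so intervals cover counting error only.

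The quasi-likelihood test of edgeR 4.0.16 (glmQLFit and glmQLFTest under R 4.3.3) was run on miRNAs with 100 reads or more per library, using total mapped miRNA reads as library size and no block. P-values were adjusted by Benjamini-Hochberg over all miRNAs tested, and 0.05 was the threshold. The standard error is the log2 fold change divided by the root of the F statistic. Arm ratios, mean RPM and list ratios were compared with exact permutation tests, two-sided. The edgeR procedure was tried on simulated counts, and the exact tests were tried on small sets of fixed values. Likeness was measured on log2(RPM + 1). Arms were paired by name, a star with the guide of the same name or the 5p with the 3p arm. A star with a hairpin number but no such guide was paired with the guide named without the number.

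The alternatives comprised scaling by TMM or by totals that leave out the 5 most abundant miRNAs or, added later, the sensory and epithelial miRNAs, the DESeq2 1.42.0 test, a lower minimum (10 reads) or no minimum, replicate number as a block (alone or together with TMM), each library or replicate number left out, a pseudocount of 0.5 and reads summed per genotype for the arm ratio, the neuron-enriched list without miR-9 and miR-9*, and the root mean square difference for likeness. Tables were handled in pandas 2.3.3 under Python 3.11.15, exact tests used numpy 2.4.6, and Wilson intervals used scipy 1.17.1. The miRNAs and lists were chosen with earlier results of these data known. Named are both arms, the list, the 5 miRNAs most like each arm and the 2 arm pairs ranked on either side of miR-124. Seeds of the arms of miR-124, the arrays and editing levels were not analysed here.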

Additional observations from a re-analysis of the deposited data

How the results depend on the processing

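The difference of miR-124 between genotypes did not pass the threshold under any of the 17 alternatives. Its log2 fold change ran from 0.42 to 0.56 over changes of scaling, filter, test and block, and from -0.092 to 0.96 when libraries or replicate numbers were left out. Only without replicate 3 of both genotypes was it negative (-0.092). Adjusted p-values ran from 0.187 to 0.998. For miR-124* the log2 fold change ran from -0.20 to -0.08 over the first kind and from -0.42 to 0.35 over the second, and it was positive in 3 of the 9 fits with libraries left out (0.20 without wild-type replicate 1, 0.03 without Adar2-/- replicate 1 and 0.35 without replicate 1 of both). The causes were not tested. DESeq2 gave 0.45 for miR-124 and -0.17 for miR-124*. The number of miRNAs called was 1 under DESeq2 and from 0 to 18 with libraries left out, with the highest value without replicate 1, all 18 higher in Adar2-/-. The arm ratio difference ran from -1.11 to -0.11 and the difference relative to the neuron-enriched list from 0.22 to 1.14 when libraries were left out, and neither changed direction. By root mean square difference 4 of the 5 miRNAs most like miR-124 and 2 of the 5 most like miR-124* were kept.

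Samples with the same replicate number did not deviate together (correlations over 399 miRNAs of -0.0010, -0.08 and -0.01), so the numbers are not taken as pairs. With the replicate number as a block 0 miRNAs were called, the log2 fold change was 0.52 for miR-124 and -0.08 for miR-124*, and neither passed the threshold. Differences within replicate numbers have the same mean as the unpaired ones by construction (-0.62 for the arm ratio and 0.78 relative to the neuron-enriched list). Their exact sign-flip p was 0.5 and 0.25, against 0.3 and 0.1 by exact permutation without the block. With 1 library per brain, differences between brains and between library preparations cannot be told apart.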

Other observations

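Other miRNAs of the neuron-enriched list differed in how many reads their star arms took. The stars of miR-138, miR-218 and miR-128 carry a hairpin number and their guides do not. Those ratios may set the star of a single hairpin against the guide of several. Over the 6 libraries the mean log2 ratio of star to guide was -9.83 for miR-138-2*, -8.32 for miR-138-1*, -7.96 for miR-153*, -7.38 for miR-218-2*, -6.42 for miR-132*, -6.15 for miR-128-2*, -5.93 for miR-137*, -3.54 for miR-9* and -3.16 for miR-128-1*. miR-128-1* thus took 1 read for each 8.93 reads of miR-128 and miR-9*, which is known to be functional in neurons, 1 for each 11.6 reads of miR-9, against -7.46 for miR-124* on the log2 scale. The difference of the mean log2 ratio, Adar2-/- minus wild type, was -0.66 for miR-9*, -0.61 for miR-137*, -0.53 for miR-218-2* and -0.54 for miR-138-2*, near the value of miR-124*, and -0.25 for miR-138-1*. It was -1.09 for miR-128-2* and -1.24 for miR-128-1*, and above 0 for miR-153* (0.79) and miR-132* (0.18). These differences were not tested.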
